A study of Mus musculus with 26 samples.

Results

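In gastruloids of the Inv(CBS5-10) clone 1 line at 120h after aggregation, against 96h, 12 of 20 presomitic mesoderm and clock genes fell, where 2.88% of all genes tested fell, and 11 of 23 somite genes rose, where 2.56% of all genes rose. Without replicate 1 at 120h these counts were 5 and 9. Of 35 Hox genes tested, 4 rose, against the same 2.56%. The comparison sets the 4 libraries of this line at 120h against its single library at 96h, 5 of the 26 RNA-seq libraries of the study. Libraries were chosen by line and stage as the sample labels give them, and no measured value entered the choice. Both stages carry the alleles Ins(CBS5-10) and Inv(CBS5-10) beside HoxB Del/Del(i9-13), which all lines of the study share. No source used here says what i9-13 and CBS stand for. The line is 1 clone, no other line was analysed at 96h here, and no animals or treatments are involved. The series title names the control of Hoxb13 by CTCF and the timing that sets tail length as the subject. Of 55141 genes counted in the deposited table, 17769 passed the filter on low counts and were tested.

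A gastruloid starts as a ball of mouse embryonic stem cells, which breaks symmetry in culture, elongates and lays down tissues like those of the posterior body. In the embryo, progenitors at the posterior end feed the presomitic mesoderm, where Notch, Wnt and FGF genes oscillate as a segmentation clock, and blocks of this tissue then mature into somites. FGF and Wnt ligands hold the posterior end immature, while retinoic acid made by somites favours differentiation. Hox genes are switched on one after another along their clusters, so that later genes of a cluster mark more posterior levels of the body axis.

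The libraries held 21325533, 29529888, 37716547 and 25411986 counts in replicates 1 to 4 at 120h, against 24970288 counts at 96h. Per the labels, replicates 2 and 3 at 120h were made with the TruSeq Stranded mRNA kit and carry the library name TruSeq_second, replicate 4 is ISML_second, and replicate 1 shares the name ISML_third with the 96h library. The 4 libraries at 120h were not alike. Of genes with at least 1 CPM (the depth-scaled read count, with TMM) in either library of a pair, 3.29% to 7.39% differed by 2-fold or more among replicates 2, 3 and 4, and 12% to 16.3% between replicate 1 and each of these. The same share was 11.6% between replicate 1 and the 96h library, and 12.7% to 15.2% between the other 3 libraries and the 96h library. Replicate 1 thus stood as far from the other libraries at 120h as from the 96h library. Since no other of the 26 libraries is named TruSeq_second, the library term takes up replicates 2 and 3. A fitted fold change rests on replicates 1 and 4 and on the difference between ISML_second and ISML_third. It can lie beyond the ratios of single libraries. That difference is set by replicates 1 and 4 and by the 2 libraries of this line at 144h, which carry 1 of the names each. The libraries at 144h were not alike, with 1.33 and 15.4 CPM of Sp5 and 1.51 and 14.0 CPM of Hes7 in replicates 1 and 2. Their bearing on single calls was not tested. Replicates 2 and 3 enter a call because all 4 libraries at 120h had to lie on the same side of the 96h library. The share of counts from mitochondrial genes was 0.909%, 0.587%, 1.24% and 1.06% in replicates 1 to 4 at 120h, against 1.2% at 96h. Replicate 2 had counts in 54.8% of all genes, against 39% to 43.4% in the other libraries at 120h and 39.8% at 96h.

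Of the 17769 genes tested, 454 (2.56%) rose and 512 (2.88%) fell between the stages, 966 (5.44%) in all. A gene counted as called when it passed edgeR's quasi-likelihood test with a Benjamini-Hochberg adjusted p under 0.05 and all 4 libraries at 120h lay on the same side of the 96h library. The direction alone, with no test, held for 3413 genes above (19.2%) and 3774 below (21.2%) the 96h library. An adjusted p under 0.05 without the demand on direction was reached by 1150 genes, 467 of them higher and 683 lower. Among the genes that rose, the nearest library at 120h differed from the 96h library by at least 2-fold in 195, 4-fold in 63 and 8-fold in 22. Among those that fell, the numbers were 246, 69 and 16. The median log2 fold change was 1.99 for genes that rose, -2.12 for genes that fell and -0.01 over all genes tested. With 1 library at 96h, its spread is taken to be that of the groups with replicates. Nothing in the labels says that replicates came from separate cultures, so the spread behind each p-value may be technical. In whole aggregates, fewer cells of a type and less RNA per cell cannot be told apart. Among ISML_third libraries alone, where replicate 1 stands against the 96h library, 178 genes rose and 147 fell. Fitted on the 5 libraries of both stages alone, 63 rose and 136 fell. Without replicate 1, 404 genes rose and 277 fell; the fold change then rests on replicate 4 and on the difference between library names, and can be extreme at low counts.

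**Figure D1:**
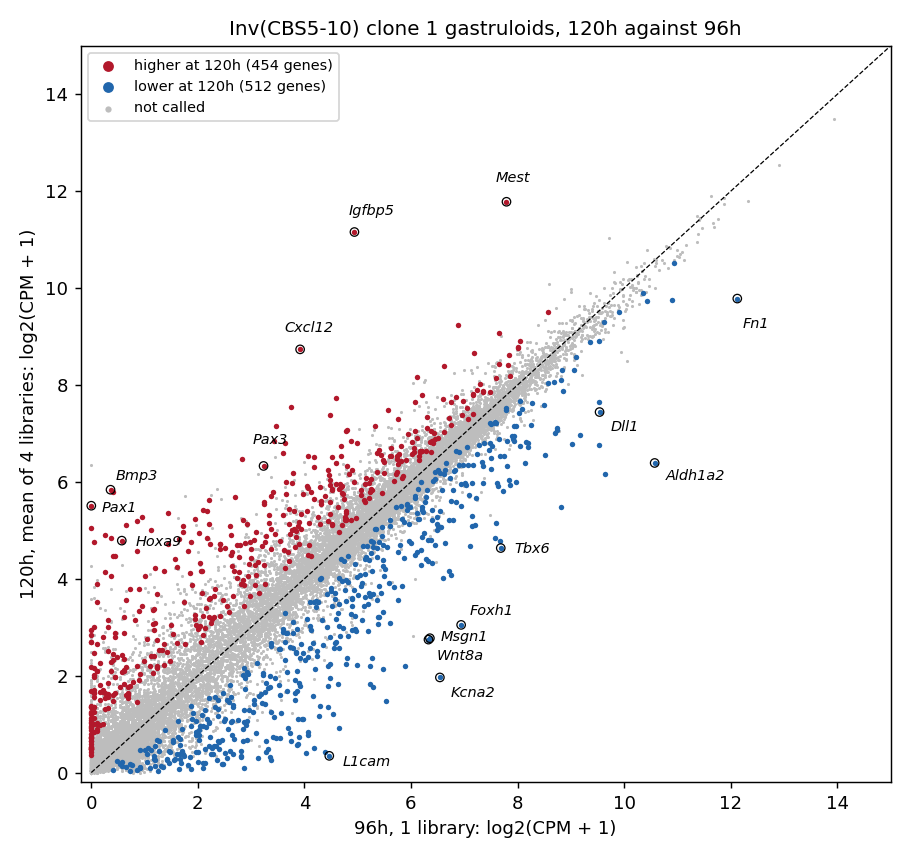
Mean level of the 4 libraries at 120h (vertical axis) against the single library at 96h (horizontal axis), both as log2(CPM + 1), for each gene tested. Red points are the 454 genes that rose, blue points the 512 that fell and grey points the rest; Igfbp5, Mest and Cxcl12 lie far above the dashed line of equal levels, and Aldh1a2, Kcna2 and Fn1 far below it.

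The markers of trunk tissues that define a gastruloid were present at both stages. T (brachyury), the T-box factor of streak and tailbud, had 40.3 to 82.7 CPM at 120h, against 162 CPM at 96h. Meox1, a homeobox gene of somites, had 439 to 631 CPM at 120h, against 200.4 CPM at 96h, and Sox2, of neural and bipotent progenitors, had 31.1 to 108 CPM at 120h, against 12.9 CPM at 96h. Defining markers of muscle, heart, neural crest and blood were at or near 0: Myod1 of muscle reached 0.0704 CPM at 120h and 0 CPM at 96h, and Nkx2-5 of heart 0.116 CPM at 120h and 0.0812 CPM at 96h. Sox10 of neural crest reached 0.211 CPM at 120h and 0.0406 CPM at 96h. The globin genes Hbb-bh1, Hbb-y and Hba-a1 had 0 counts in all 5 libraries.

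Secreted factors and matrix proteins were among the genes that rose most. Igfbp5 (chromosome 1, 72857931 to 72874884, mm10), a binding protein of insulin-like growth factors, had 3097, 2135, 1944 and 1964 CPM at 120h, against 29.7 CPM at 96h (log2 fold change 6.59 ± 0.35 (SE), adjusted p = 1.21e-06). Its 120h mean was 77.0-fold that at 96h. Mest (chromosome 6, 30723546 to 30748465), an imprinted gene active on the paternal copy, had 4181, 3064, 3839 and 3007 CPM at 120h, against 221 CPM at 96h (log2 fold change 4.39 ± 0.37 (SE), adjusted p = 2.86e-05). Cxcl12, a chemokine that guides migrating cells, had 521, 325, 547 and 308 CPM at 120h, against 14.1 CPM at 96h (log2 fold change 5.12 ± 0.57 (SE), adjusted p = 5.24e-04). None of the 3 showed any overlap between the stages, which the rule for a call excludes. Bmp3, a ligand of the BMP family, had 75.2, 51.7, 56.2 and 41.9 CPM at 120h, against 0.284 CPM at 96h (log2 fold change 7.82 ± 0.58 (SE), adjusted p = 2.03e-05). Islr, a secreted protein with leucine-rich repeats, had 34.5, 52.4, 85.4 and 46.4 CPM at 120h, against 0.325 CPM at 96h (log2 fold change 6.70 ± 0.47 (SE), adjusted p = 6.77e-06). Both were close to absent at 96h and high in every library at 120h. Fmod, the collagen-binding proteoglycan fibromodulin, had 31.9, 26.6, 45.8 and 24.7 CPM at 120h and 0 counts at 96h, so that its mean was at least 265-fold higher when 96h is set at 3 counts (adjusted p = 2.03e-05). Fap, a cell-surface serine protease of mesenchyme, had 36.4, 10.7, 37.5 and 19.5 CPM at 120h and 1 count (0.0406 CPM) at 96h, a ratio of pooled CPM of 654 with a 95% counting interval of 117 to 25850.4 (adjusted p = 0.00536). The interval is that wide because of the single count. Without replicate 1, the log2 fold change was 7.16 for Bmp3.

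Transcription factors and receptors were among the other leading genes. Where only a range is given, the value in brackets is the log2 fold change. Nr2f2, an orphan nuclear receptor of mesenchyme, had 94.9, 62.0, 73.5 and 123 CPM at 120h, against 6.13 CPM at 96h (log2 fold change 4.01 ± 0.28 (SE), adjusted p = 6.77e-06), and its relative Nr2f1 had 18.0, 22.1, 42 and 52.7 CPM at 120h, against 0.568 CPM at 96h (log2 fold change 5.06 ± 1.01 (SE), adjusted p = 0.0153). Foxd2, a forkhead factor of paraxial mesoderm, had 20.7, 16.0, 25.3 and 48.7 CPM at 120h, against 0.284 CPM at 96h (log2 fold change 6.23 ± 0.73 (SE), adjusted p = 5.65e-04). All 3 lay well above the 96h library in each library at 120h, which follows from how the leading genes were chosen. Foxd2os, transcribed from the opposite strand beside Foxd2, had 9.57 to 24.6 CPM at 120h, against 0.284 CPM at 96h (5.61, adjusted p = 1.17e-04); whether counting used the strand is not given, so reads of the pair may be shared. Halr1, a long noncoding RNA of the HoxA region, had 16.8 to 33.7 CPM at 120h, against 0.812 CPM at 96h (5.18, adjusted p = 0.00141), with the same limit. Prss23, a serine protease, had 16.0 to 26.5 CPM at 120h, against 0.365 CPM at 96h (5.98, adjusted p = 5.69e-04), and Selenop, the selenium carrier of plasma, had 101 to 126 CPM at 120h, against 9.70 CPM at 96h (3.49, adjusted p = 2.03e-05). Adra1a, an adrenergic receptor, had 10.5 to 25 CPM at 120h, against 0.203 CPM at 96h (6.47, adjusted p = 8.49e-04). Rab3il1, an exchange factor of Rab GTPases, had 15.5 to 62.1 CPM at 120h, against 0.812 CPM at 96h (4.99, adjusted p = 0.0314), and Ssc5d, of the scavenger receptor family, had 17.0 to 46.5 CPM at 120h, against 1.18 CPM at 96h (3.77, adjusted p = 0.00208). The genes with the smallest adjusted p beyond these were Plch1, a phospholipase C, with 137 to 285 CPM at 120h, against 23.1 CPM at 96h (3.72, adjusted p = 6.77e-06), and Rassf2, a Ras-association protein, with 47.6 to 59.1 CPM at 120h, against 11.6 CPM at 96h (2.35, adjusted p = 6.77e-06). Axl, a receptor tyrosine kinase, had 24.7 to 31.5 CPM at 120h, against 3.53 CPM at 96h (2.84, adjusted p = 2.86e-05), and Nuak2, a kinase related to AMPK, had 24.5 to 41.7 CPM at 120h, against 3.04 CPM at 96h (3.06, adjusted p = 1.21e-04). With replicate 1 left out, the log2 fold change was 4.50 for Halr1, 7.32 for Prss23 and 5.62 for Rab3il1.

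The genes that fell most included enzymes, ion channels and regulators of early mesoderm. Aldh1a2 (chromosome 9, 71215788 to 71296243), the enzyme that makes retinoic acid in paraxial mesoderm, had 67.3, 45.8, 121 and 97.8 CPM at 120h, against 1523 CPM at 96h (log2 fold change -4.37 ± 0.79 (SE), adjusted p = 0.00974). The 96h library stood 18.4-fold above the 120h mean. Kcna2, a voltage-gated potassium channel, had 3.28, 1.16, 3.92 and 3.24 CPM at 120h, against 92.2 CPM at 96h (log2 fold change -5.19 ± 0.87 (SE), adjusted p = 0.00536). Msgn1 (chromosome 12, 11208359 to 11208972), mesogenin, a master regulator of presomitic mesoderm, had 3.42, 5.10, 7.57 and 7.26 CPM at 120h, against 80.9 CPM at 96h (log2 fold change -4.88 ± 0.84 (SE), adjusted p = 0.00689). The 120h levels of Msgn1 did not come near that of the 96h library. Foxh1, the forkhead partner of Smad proteins in Nodal signalling, had 4.20, 6.30, 5.27 and 13.3 CPM at 120h, against 122 CPM at 96h (log2 fold change -4.55 ± 0.62 (SE), adjusted p = 0.00142). Wnt8a, a Wnt ligand of the primitive streak, had 3.69, 8.72, 4.75 and 5.64 CPM at 120h, against 79.4 CPM at 96h (log2 fold change -4.61 ± 0.43 (SE), adjusted p = 8.91e-05). L1cam, an adhesion molecule of nerve cells, had 0.185, 0.211, 0.259 and 0.425 CPM at 120h, against 21.1 CPM at 96h (log2 fold change -7.13 ± 0.65 (SE), adjusted p = 6.31e-05). In each of these genes the highest library at 120h stood far below the 96h library, which follows from how they were chosen. Rnf213, a large ubiquitin ligase, had 39.2 to 101 CPM at 120h, against 796 CPM at 96h (-3.12, adjusted p = 0.0180). Slc44a5, a choline transporter-like protein, had 3.09 to 4.33 CPM at 120h, against 58.2 CPM at 96h (-4.11, adjusted p = 3.29e-04). Dgkg, a diacylglycerol kinase, had 0.106 to 0.648 CPM at 120h, against 19.9 CPM at 96h (-5.90, adjusted p = 0.00304), and Alox15, a lipoxygenase, had 0.809 to 3.27 CPM at 120h, against 45.3 CPM at 96h (-4.94, adjusted p = 0.00218). When replicate 1 was omitted, the call ended for Aldh1a2 (-3.99, adjusted p = 0.0639), Rnf213 (-3.57, adjusted p = 0.0562) and Alox15 (-4.97, adjusted p = 0.0538), and the log2 fold change was -7.41 for Kcna2, -10.89 for Msgn1, -3.68 for Foxh1 and -8.07 for Dgkg.

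Receptors and channels were among the remaining leading genes that fell. F2rl1, a protease-activated receptor, had 1.71 to 3.28 CPM at 120h, against 38.2 CPM at 96h (-3.65, adjusted p = 0.00747), and Btla, an immunoglobulin-family receptor known from lymphocytes, had 0.193 to 0.804 CPM at 120h, against 17.1 CPM at 96h (-5.80, adjusted p = 9.59e-04). Kcnk3, a background potassium channel, had 0.352 to 1.85 CPM at 120h, against 24.1 CPM at 96h (-5.99, adjusted p = 0.00194), and Grm8, a metabotropic glutamate receptor, had 0.422 to 0.726 CPM at 120h, against 12.5 CPM at 96h (-4.25, adjusted p = 0.00715). Unc5c, a netrin receptor, had 0.317 to 0.804 CPM at 120h, against 13.8 CPM at 96h (-5.44, adjusted p = 5.65e-04). Lrrc55, an accessory subunit of potassium channels, had 0.352 to 0.888 CPM at 120h, against 14.0 CPM at 96h (-3.85, adjusted p = 0.00771), and Samd3 had 0.141 to 1.09 CPM at 120h, against 15.8 CPM at 96h (-5.51, adjusted p = 0.0241). Vrtn, vertnin, which is tied to vertebral number in pigs, had 1.30 to 3.73 CPM at 120h, against 36.4 CPM at 96h (-4.87, adjusted p = 0.00654). Ptgds, prostaglandin D synthase, had 0.416 to 1.97 CPM at 120h, against 22.3 CPM at 96h (-5.38, adjusted p = 0.0145). Rhbg, an ammonium transporter, had 0, 0.246, 0.285 and 0.270 CPM at 120h, against 9.42 CPM at 96h (adjusted p = 0.00397). Since replicate 1 was at 0, a ratio of means is given in place of a fitted value: the 96h library stood 47.0-fold above the 120h mean. The smallest adjusted p beyond these belonged to Cachd1, with 76.6 to 95.7 CPM at 120h, against 283 CPM at 96h (-1.83, adjusted p = 3.66e-05), and to Epha1, an ephrin receptor, with 25.9 to 38.9 CPM at 120h, against 141 CPM at 96h (-2.54, adjusted p = 1.21e-04). Rtl8c, derived from a retrotransposon, had 2.35 to 11.3 CPM at 120h, against 41.0 CPM at 96h (-3.78, adjusted p = 1.34e-04). Grsf1, an RNA-binding protein of mitochondria, had 149.9 to 233 CPM at 120h, against 738 CPM at 96h (-1.62, adjusted p = 1.75e-04), and Dpysl5, of the collapsin response mediators, had 62.1 to 127 CPM at 120h, against 366 CPM at 96h (-2.30, adjusted p = 2.38e-04). In the fit lacking replicate 1, the call ended for F2rl1 (-2.99, adjusted p = 0.121), Grm8 (-4.96, adjusted p = 0.169), Lrrc55 (-2.66, adjusted p = 0.357), Samd3 (-10.99, adjusted p = 0.0501), Ptgds (0.00, adjusted p = 0.897) and Rhbg (adjusted p = 0.0828), and the log2 fold change was -6.97 for Btla, -8.68 for Kcnk3, -7.16 for Unc5c, -6.35 for Vrtn, -2.93 for Rtl8c and -1.62 for Dpysl5. Leaving out replicate 4 ended the call of Samd3 (-4.94, adjusted p = 0.0540) and gave a log2 fold change of -4.75 for Unc5c. The fitted 0.00 of Ptgds is not borne out by its levels, 1.97, 1.61 and 1.24 CPM in replicates 2 to 4.

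Levels of different genes can be compared per length in the deposited FPKM values (fragments scaled to transcript length and depth). Mest had 1127, 898, 1222 and 827 FPKM at 120h, against 59.1 FPKM at 96h, and Igfbp5 had 438, 268, 266 and 274 FPKM at 120h, against 3.96 FPKM at 96h. Aldh1a2 had 18.0, 15.1, 43.6 and 25.3 FPKM at 120h, against 370.2 FPKM at 96h, and Fn1 had 73.0, 59.5, 83.2 and 86.1 FPKM at 120h, against 337 FPKM at 96h. By this measure Mest was the most abundant of these 4 genes in every library at 120h, and Aldh1a2 in the library at 96h.

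The promoters of Msgn1 and Aldh1a2, which fell, and of Igfbp5 and Hoxa9, which rose, are shown because Msgn1 is known as a target of Wnt signalling and T-box factors. They are the 250 bases upstream of the start from RefSeq (GRCm38.p6), read 5′ to 3′ on the gene's strand. Capitals mark matches, on either strand, to CTTTGA, the core of TCF/LEF sites, to AGGTGT, the core of T-box sites, or to TTTATNG, a CDX motif. RefSeq starts can differ by some bases from the gene bounds of the deposited table.
Msgn1, chr12:11208949-11209198, minus strand: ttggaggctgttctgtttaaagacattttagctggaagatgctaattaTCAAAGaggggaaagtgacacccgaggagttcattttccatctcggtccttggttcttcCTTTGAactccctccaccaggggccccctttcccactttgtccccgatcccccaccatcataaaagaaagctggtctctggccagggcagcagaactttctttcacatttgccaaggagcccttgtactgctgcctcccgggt
Aldh1a2, chr9:71215539-71215788, plus strand: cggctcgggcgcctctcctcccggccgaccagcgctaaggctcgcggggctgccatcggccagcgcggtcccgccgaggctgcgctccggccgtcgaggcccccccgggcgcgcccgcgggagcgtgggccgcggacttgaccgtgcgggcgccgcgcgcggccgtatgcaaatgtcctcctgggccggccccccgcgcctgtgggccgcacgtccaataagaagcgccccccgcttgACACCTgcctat
Igfbp5, chr1:72874866-72875115, minus strand: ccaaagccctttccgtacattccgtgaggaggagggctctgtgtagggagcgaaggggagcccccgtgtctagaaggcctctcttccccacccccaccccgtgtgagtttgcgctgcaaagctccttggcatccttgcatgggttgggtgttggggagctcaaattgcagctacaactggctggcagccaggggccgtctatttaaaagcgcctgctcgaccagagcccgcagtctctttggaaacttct
Hoxa9, chr6:52227371-52227620, minus strand: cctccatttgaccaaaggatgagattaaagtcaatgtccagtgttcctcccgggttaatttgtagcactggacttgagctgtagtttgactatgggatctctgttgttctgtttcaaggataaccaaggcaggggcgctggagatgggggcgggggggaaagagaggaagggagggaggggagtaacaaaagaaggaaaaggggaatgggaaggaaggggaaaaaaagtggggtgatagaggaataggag
Msgn1 held 2 matches to CTTTGA, 202 and 143 bases before its start, and Aldh1a2 held 1 match to AGGTGT, 12 bases before its start, and no match overlaps another. Igfbp5 and Hoxa9, which both rose, held no match to any of the 3 motifs in this window. Matches are short and frequent: among all 32851 promoters of the table, 13.8% held CTTTGA, 11.8% AGGTGT and 9.8% TTTATNG. Among 467 promoters of 331 genes that rose, the shares were 10.1%, 10.1% and 6.4%, and among 553 promoters of 408 genes that fell, 11.4%, 11.4% and 9.4%. Among 15424 promoters of 12050 genes tested they were 10.8%, 9.7% and 6.2%. A match describes the letters and is not evidence of a bound site.

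Genes of the primitive streak and nascent mesoderm fell: 7 of the 16 tested passed and none rose, where 2.88% of all genes fell. Their median log2 fold change was -2.61, and 12 of 16 lay below the 96h library in all 4 libraries, as did 21.2% of all genes. Wnt8a has been described, and T had 40.3, 49.1, 76.9 and 82.7 CPM at 120h, against 162 CPM at 96h (log2 fold change -2.06 ± 0.46 (SE), adjusted p = 0.0220). Fgf4, an FGF ligand of the streak, had 5.63, 4.96, 11.7 and 7.49 CPM at 120h, against 48.0 CPM at 96h (log2 fold change -2.99 ± 0.71 (SE), adjusted p = 0.0275), and Wnt3a, the Wnt ligand of streak and tailbud, had 11.7, 17.9, 32.8 and 23.5 CPM at 120h, against 66.2 CPM at 96h (log2 fold change -2.81 ± 0.64 (SE), adjusted p = 0.0252). Sp5, a zinc-finger factor switched on by Wnt, had 4.71, 6.61, 13.9 and 28.4 CPM at 120h, against 41.4 CPM at 96h (log2 fold change -3.35 ± 0.72 (SE), adjusted p = 0.0191). Replicates 3 and 4 lay nearest to the 96h library in T, and replicate 4 in Sp5. Evx1, an even-skipped homeobox gene, had 8.54 to 18.0 CPM at 120h, against 30.5 CPM at 96h (-2.25, adjusted p = 0.0355), and Mesp1, of nascent mesoderm, had 0.508 to 2.59 CPM at 120h, against 6.82 CPM at 96h (-4.08, adjusted p = 0.0413). Other members did not pass: Eomes had 0.139 to 0.193 CPM at 120h, against 3.25 CPM at 96h (log2 fold change -5.02, adjusted p = 0.139), Mixl1 had 0.985 to 5.21 CPM at 120h, against 17.0 CPM at 96h (log2 fold change -3.43, adjusted p = 0.0542) and Lhx1 had 3.90 to 14.5 CPM at 120h, against 33.3 CPM at 96h (log2 fold change -2.10, adjusted p = 0.234). Without replicate 1 at 120h, 3 of the list fell, 2 without the library term and 3 on the 5 libraries of both stages alone. The 96h level stood 1.99-fold above the 120h mean in Evx1, 2.60-fold in T, 3.08-fold in Wnt3a and 3.09-fold in Sp5. It stood 4.71-fold above in Mesp1, 6.44-fold in Fgf4 and 13.9-fold in Wnt8a. In all 7 called genes this was less than the fitted change. Leaving replicate 1 aside, the call ended for T (-2.22, adjusted p = 0.0947), Fgf4 (-2.68, adjusted p = 0.192), Sp5 (-4.07, adjusted p = 0.0563) and Mesp1 (-5.42, adjusted p = 0.124), and the log2 fold change was -4.04 for Wnt3a and -4.09 for Evx1. Omitting replicate 3 ended the call of Evx1 (-2.24, adjusted p = 0.0502). Omitting replicate 4 ended the call of Wnt3a (-2.50, adjusted p = 0.0506), Evx1 (-1.84, adjusted p = 0.0581) and Mesp1 (-3.73, adjusted p = 0.105).

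Of the tailbud and neuromesodermal progenitor genes, 5 of 16 tested fell, where 2.88% of all genes fell, and none rose, with a median log2 fold change of -0.61. By direction alone the list was split: 5 lay above the 96h library in all 4 libraries and 5 below. Over all genes these shares were 19.2% and 21.2%. The 5 called genes were T, Wnt3a, Sp5 and Evx1, which the streak list also holds, and Cdx1. Cdx1, a caudal homeobox gene that acts on Hox clusters, had 12.9, 25, 37.7 and 29.8 CPM at 120h, against 202 CPM at 96h (log2 fold change -4.31 ± 0.61 (SE), adjusted p = 0.00221). The other caudal genes did not pass: Cdx2 had 94.9, 166, 139 and 124 CPM at 120h, against 121 CPM at 96h (log2 fold change -0.60, adjusted p = 0.339), and Cdx4 had 51.8, 125, 13.5 and 24.4 CPM at 120h, against 15.3 CPM at 96h (log2 fold change 1.63, adjusted p = 0.494). Cdx2 and Cdx4 overlapped between the stages. Nkx1-2, of bipotent progenitors, had 92.0 to 242 CPM at 120h, against 239 CPM at 96h, and Fgf8, the posterior FGF ligand, had 5.68 to 42.7 CPM at 120h, against 21.5 CPM at 96h; neither passed. Cyp26a1, which degrades retinoic acid at the posterior end, had 12.4 to 19.8 CPM at 120h, against 10.5 CPM at 96h (log2 fold change 0.16, adjusted p = 0.871). Of the list, 3 fell without replicate 1, 1 without the library term and 1 on the 5 libraries alone. Replicate 1 bore on several of these values: without it the log2 fold change was -5.61 for Cdx1.

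Of 20 presomitic mesoderm and segmentation clock genes tested, 12 fell, 1 rose and 17 lay below the 96h library in all 4 libraries. Over all genes tested these shares were 2.88%, 2.56% and 21.2%. Over the list the log2 fold change had a median of -2.40, and summed levels were 806 to 1339.5 CPM at 120h, against 3424 CPM at 96h. Tbx6, the T-box factor required for paraxial mesoderm, had 10.3, 15, 31.1 and 39 CPM at 120h, against 205 CPM at 96h (log2 fold change -4.50 ± 0.83 (SE), adjusted p = 0.0106). Dll1, the main Notch ligand of this tissue, had 118, 154, 208 and 211 CPM at 120h, against 743 CPM at 96h (log2 fold change -2.55 ± 0.43 (SE), adjusted p = 0.00591), and its receptor Notch1 had 169.8, 306, 405 and 382 CPM at 120h, against 536 CPM at 96h (log2 fold change -1.54 ± 0.36 (SE), adjusted p = 0.0268). In Tbx6 the 4 libraries at 120h spread widely, with replicate 1 lowest, and all lay far below the 96h library. The clock gene Hes7, a Notch-driven repressor, had 9.74 to 49.0 CPM at 120h, against 61.8 CPM at 96h (-2.85, adjusted p = 0.0446), and Dll3, a divergent Notch ligand, had 16.3 to 51.6 CPM at 120h, against 103 CPM at 96h (-2.85, adjusted p = 0.0154). Lfng, which modifies Notch and oscillates, had 11.7 to 37.1 CPM at 120h, against 80.9 CPM at 96h (log2 fold change -2.34, adjusted p = 0.0691). Mesp2, which sets segment borders, had 5.42 to 9.47 CPM at 120h, against 24.0 CPM at 96h (-2.22, adjusted p = 0.0169), and its partner Ripply2 had 0.970 to 3.36 CPM at 120h, against 8.12 CPM at 96h (-2.90, adjusted p = 0.0393). The protocadherins of this tissue fell too: Pcdh19 had 68.7 to 135 CPM at 120h, against 735 CPM at 96h (-2.57, adjusted p = 0.0360), and Pcdh8 had 10.7 to 29.2 CPM at 120h, against 76.8 CPM at 96h (-2.46, adjusted p = 0.0331). Rspo3, an enhancer of Wnt signalling, had 45.3 to 75.1 CPM at 120h, against 251 CPM at 96h (-1.92, adjusted p = 0.00591), and Axin2, a Wnt target and brake, had 71.4 to 109.7 CPM at 120h, against 204 CPM at 96h (-1.52, adjusted p = 0.00128). Hes1, a broadly used Notch target, was the gene that rose, with 34.0, 53.4, 39 and 43.4 CPM at 120h, against 12 CPM at 96h (log2 fold change 1.39 ± 0.27 (SE), adjusted p = 0.00966). Without replicate 1, 5 of the list fell and 0 rose, and on the 5 libraries alone 5 fell and 0 rose. Without replicate 1, the call ended for Dll1 (-2.25, adjusted p = 0.0596), Notch1 (-1.19, adjusted p = 0.221), Hes7 (-3.54, adjusted p = 0.0961), Ripply2 (-1.49, adjusted p = 0.697), Pcdh19 (-2.98, adjusted p = 0.0948), Pcdh8 (-1.52, adjusted p = 0.269), Rspo3 (-1.96, adjusted p = 0.0557) and Hes1 (1.06, adjusted p = 0.127), and the log2 fold change was -5.48 for Tbx6, -3.53 for Dll3 and -3.35 for Mesp2. Omitting replicate 2 ended the call of Hes7 (-2.86, adjusted p = 0.0607). Omitting replicate 3 ended the call of Hes7 (-2.85, adjusted p = 0.0606). Omitting replicate 4 ended the call of Hes7 (-2.66, adjusted p = 0.0764) and Pcdh19 (-2.45, adjusted p = 0.0620).

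By the number of genes called, somite genes moved the other way. Of 23 tested, 11 rose, where 2.56% of all genes rose, 1 fell (Aldh1a2) and 11 did not pass, with a median log2 fold change of 2.18. Summed levels did not rise, with 1046 to 1733 CPM at 120h, against 2036 CPM at 96h. Aldh1a2 held 1523 CPM of the sum at 96h. Pax3, of the dermomyotome, had 85.1, 63.0, 97.7 and 71.9 CPM at 120h, against 8.4 CPM at 96h (log2 fold change 3.58 ± 0.41 (SE), adjusted p = 4.60e-04), and its relative Pax7 had 19.3 to 28.6 CPM at 120h, against 4.71 CPM at 96h (2.53, adjusted p = 0.0278). Eya1, a transcriptional cofactor of muscle precursors, had 34.4 to 73.7 CPM at 120h, against 18.5 CPM at 96h (2.08, adjusted p = 0.00744). Dmrt2, a dermomyotome factor, had 96.0, 62.4, 129.5 and 78.4 CPM at 120h, against 15.7 CPM at 96h (log2 fold change 2.50 ± 0.40 (SE), adjusted p = 0.00344). In these genes every library at 120h lay above the 96h library, as any call required. Pax1 and Pax9, of the sclerotome, were at or near 0 at 96h. Pax1 had 34.2, 15.8, 88.7 and 39.3 CPM at 120h and 0 counts at 96h, at least 365-fold higher in the mean when 96h is set at 3 counts (adjusted p = 0.0300). Pax9 had 3.32, 3.87, 4.69 and 9.19 CPM at 120h and 2 counts (0.0812 CPM) at 96h, a ratio of pooled CPM of 64.6 with a 95% counting interval of 17.8 to 535 (adjusted p = 0.00188). Sox9, also of sclerotome, had 8.03 to 26.5 CPM at 120h, against 13.3 CPM at 96h (log2 fold change -0.46, adjusted p = 0.710). Uncx, of the caudal somite compartment, had 9.6, 21.8, 20 and 64.0 CPM at 120h, against 0.203 CPM at 96h (log2 fold change 5.50 ± 1.17 (SE), adjusted p = 0.0199), and Meox2 had 14.5 to 63.4 CPM at 120h, against 0.934 CPM at 96h (5.47, adjusted p = 0.0136). Meox1 had 542, 439, 631 and 552 CPM at 120h, against 200.4 CPM at 96h (log2 fold change 1.37 ± 0.23 (SE), adjusted p = 0.00386), and Fgf18 had 10.4 to 16.0 CPM at 120h, against 2.72 CPM at 96h (2.18, adjusted p = 0.00937). Tcf15, of epithelial somites, had 28.2 to 96.6 CPM at 120h, against 15.2 CPM at 96h (log2 fold change 0.81, adjusted p = 0.451). Foxc1, a forkhead factor of paraxial mesoderm, had 55.7 to 155 CPM at 120h, against 121 CPM at 96h, and Foxc2 had 62.0 to 174 CPM at 120h, against 72.3 CPM at 96h, with overlap in both and no call. Muscle regulators were at the limit: Myf5 had 0.554 to 0.965 CPM at 120h, against 0.365 CPM at 96h, and Myod1 and Myog reached 0.0704 and 0.0772 CPM at 120h and had 0 counts at 96h. Without replicate 1, 9 of the list rose and 0 fell, and on the 5 libraries alone 5 rose and 1 fell. With replicate 1 left out, the call ended for Pax1 (adjusted p = 0.0603) and Meox1 (1.19, adjusted p = 0.0583), and the log2 fold change was 4.28 for Pax3, 6.72 for Pax9, 6.22 for Meox2 and 2.89 for Fgf18.

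**Figure D2:**
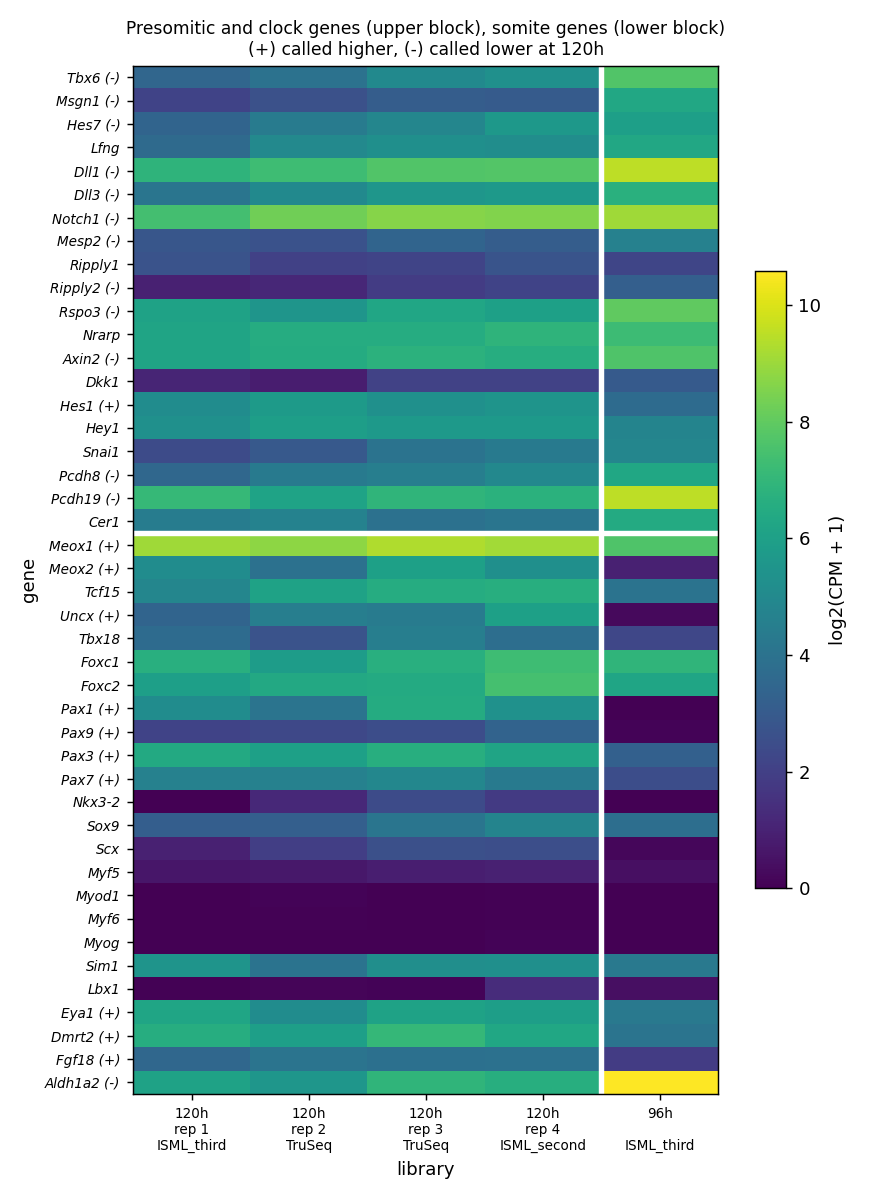
Levels, as log2(CPM + 1) by colour, of the presomitic and clock genes (upper block) and the somite genes (lower block) in the 4 libraries at 120h and, right of the white line, the library at 96h. Genes marked (+) rose and those marked (-) fell; the upper block is mostly darker at 120h (12 of 20 fell) and the Pax, Meox, Eya1 and Dmrt2 rows of the lower block brighter.

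Among the 39 Hox genes, 35 were tested and 4 rose, where 2.56% of all genes rose: Hoxa7, Hoxa9, Hoxc8 and Hoxc9. None fell. With DESeq2, 4 of HoxA, 1 of HoxB, 4 of HoxC and 2 of HoxD passed as higher, and with no filter on low counts 4, 2, 5 and 3. Hoxa7 (chromosome 6, 52214497 to 52221854) had 34.7, 74.9, 36.9 and 48.2 CPM at 120h, against 3.61 CPM at 96h (log2 fold change 3.28 ± 0.50 (SE), adjusted p = 0.00304). Hoxa9 (chromosome 6, 52223099 to 52227370) had 27.8, 42.7, 13.2 and 22.8 CPM at 120h, against 0.487 CPM at 96h (log2 fold change 5.85 ± 0.99 (SE), adjusted p = 0.00707). Hoxc8 (chromosome 15, 102990606 to 102993821) had 55.1, 37.0, 31.6 and 41.6 CPM at 120h, against 12.9 CPM at 96h (log2 fold change 2.00 ± 0.38 (SE), adjusted p = 0.00846), and Hoxc9 (chromosome 15, 102976438 to 102985099) had 20, 40.9, 10.8 and 13.0 CPM at 120h, against 0.325 CPM at 96h (log2 fold change 5.75 ± 1.22 (SE), adjusted p = 0.0194). Replicate 2 was the highest of the 4 libraries at 120h in Hoxa7, Hoxa9 and Hoxc9, and replicate 1 in Hoxc8. Hoxa10 had 3.60, 13.6, 2.44 and 3.98 CPM at 120h and 0 counts at 96h, at least 48.4-fold higher in the mean when 96h is set at 3 counts, but did not pass (adjusted p = 0.0715). Hoxc10 had 10.4, 30.9, 3.55 and 7.61 CPM at 120h and 1 count (0.0406 CPM) at 96h, a pooled ratio of 309, counting interval 55.5 to 12233, and did not pass either (adjusted p = 0.145). Hoxc6 had 15.8, 37.4, 13.0 and 23.6 CPM at 120h, against 3.00 CPM at 96h (log2 fold change 2.54, adjusted p = 0.0540), and Hoxa6 had 0.804 to 2.71 CPM at 120h, against 0.0812 CPM at 96h (log2 fold change 3.55, adjusted p = 0.0706). In Hoxa6, Hoxa10, Hoxc6 and Hoxc10 all 4 libraries at 120h lay above the 96h library. When replicate 1 was omitted, the call ended for Hoxc8 (1.70, adjusted p = 0.0914) and Hoxc9 (5.21, adjusted p = 0.0582).

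No gene of the HoxB cluster, the one named in the deletion allele, passed the test, and the cluster's median log2 fold change was 0.10. DESeq2 called 1 higher and 1 lower, and 1 was called lower without replicate 2 or 3. Hoxb1, the first gene of the cluster, had 27.5, 61.3, 32.0 and 40.2 CPM at 120h, against 96.0 CPM at 96h (log2 fold change -1.57, adjusted p = 0.0768), all 4 libraries below the 96h library. Hoxb9 had 303, 432, 157 and 171 CPM at 120h, against 74.7 CPM at 96h (log2 fold change 1.98, adjusted p = 0.111), all 4 above it. Hoxb7 had 6.64 to 15.2 CPM at 120h, against 2.35 CPM at 96h (log2 fold change 1.57, adjusted p = 0.179). Hoxb2 had 9.37 to 33.0 CPM at 120h, against 21.2 CPM at 96h, and Hoxb3 had 30.0 to 53.6 CPM at 120h, against 30.5 CPM at 96h. Hoxb4 had 10.9 to 24.0 CPM at 120h, against 16.7 CPM at 96h, Hoxb6 had 3.05 to 7.18 CPM at 120h, against 3.04 CPM at 96h, and Hoxb8 had 25.7 to 42.8 CPM at 120h, against 27.2 CPM at 96h. Their ranges at 120h took in the 96h level, except in Hoxb6, whose lowest library nearly equalled it. Hoxb5 had 2.41 to 4.57 CPM at 120h, against 5.93 CPM at 96h (log2 fold change -1.13, adjusted p = 0.165). Hoxb13, the last gene of the cluster, had 0.323, 1.02, 0.259 and 0.425 CPM at 120h, against 0.162 CPM at 96h (log2 fold change 0.49, adjusted p = 0.858). In the HoxD cluster none of 8 tested passed, with a median of 0.46: Hoxd8 had 30.8, 29.4, 16.8 and 17.3 CPM at 120h, against 7.79 CPM at 96h (log2 fold change 1.84, adjusted p = 0.0526), and Hoxd9 had 25.1, 37.5, 19.4 and 30.5 CPM at 120h, against 6.41 CPM at 96h (log2 fold change 1.82, adjusted p = 0.109). Hoxd3 had 21.9 to 58.0 CPM at 120h, against 54.0 CPM at 96h and Hoxd1 7.95 to 11.3 CPM at 120h, against 12.2 CPM at 96h. The medians of HoxA and HoxC were 1.84 over 10 genes and 2.54 over 7. Hoxa2, of an early paralog group, also overlapped, with 22.7 to 32.1 CPM at 120h, against 24.8 CPM at 96h. Toward the end of the clusters, Hoxa13, Hoxc12, Hoxc13 and Hoxd12 were too low to be tested, with at most 0.141, 0, 0.116 and 0.0352 CPM at 120h and 0 counts at 96h in each. Hoxd13 was tested and did not pass, with 0 to 0.106 CPM at 120h, against 0.406 CPM (10 counts) at 96h (adjusted p = 0.226).

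**Figure D3:**
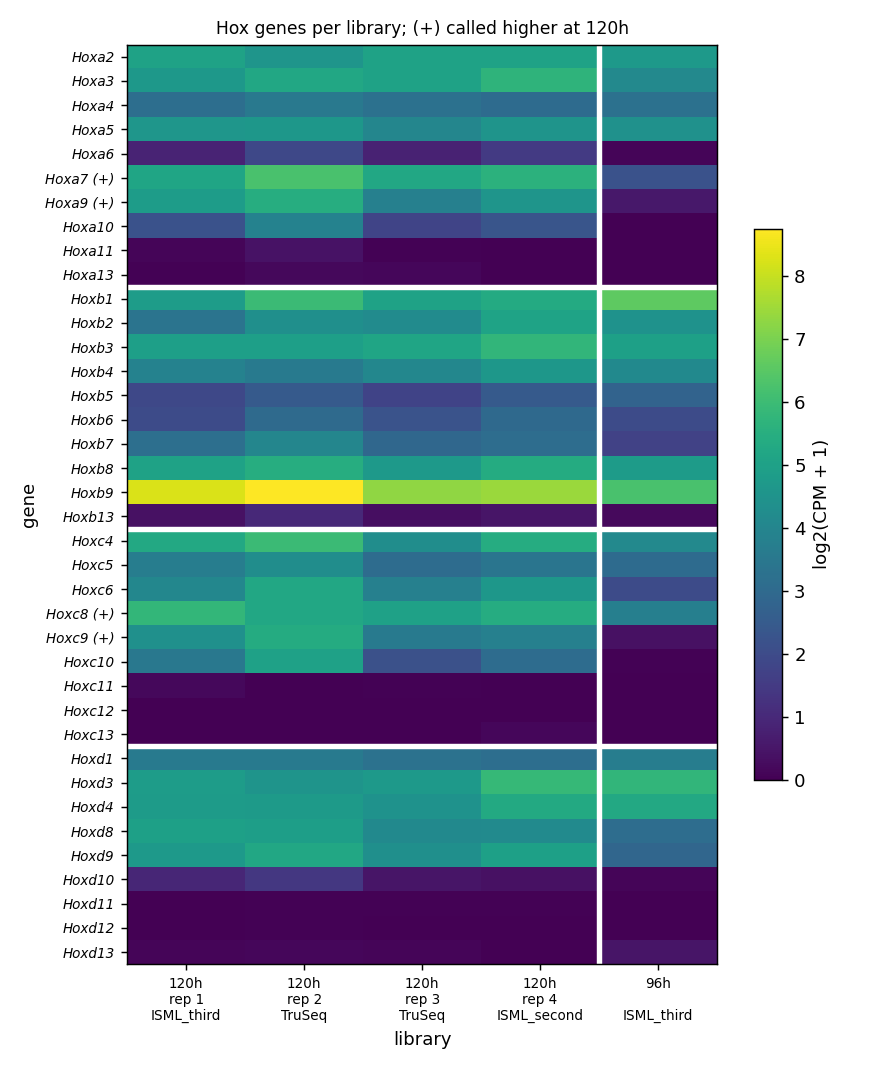
Levels of Hox genes, as log2(CPM + 1) by colour, in the 4 libraries at 120h and, right of the white line, the library at 96h; white lines across separate the HoxA, HoxB, HoxC and HoxD clusters. Genes marked (+) rose; the rows of paralog groups 6 to 10 in HoxA and HoxC are brighter at 120h, while Hoxa4, Hoxa5 and Hoxb4 have similar colours at both stages.

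Of 21 FGF pathway genes tested, 2 rose and 7 fell, where 2.56% and 2.88% of all genes did, with a median log2 fold change of -0.59. Among receptors, Fgfr1, of mesoderm, had 167, 260.3, 248 and 259 CPM at 120h, against 463 CPM at 96h (log2 fold change -1.44 ± 0.17 (SE), adjusted p = 4.36e-04), while Fgfr2 had 72.0, 83.3, 65.6 and 59.4 CPM at 120h, against 20.9 CPM at 96h (log2 fold change 1.94 ± 0.26 (SE), adjusted p = 8.32e-04). The change in receptor was thus opposite for the pair. Among ligands, Fgf4 fell and Fgf18 rose as given above, and Fgf3 had 7.70 to 16.6 CPM at 120h, against 34.1 CPM at 96h (-2.30, adjusted p = 0.0430). Among feedback genes, Spry4 had 19.3, 16.3, 22.3 and 17.8 CPM at 120h, against 82.7 CPM at 96h (log2 fold change -2.04 ± 0.29 (SE), adjusted p = 0.00132), and Spry2 had 62.6, 63.6, 59.7 and 54.2 CPM at 120h, against 130.4 CPM at 96h (log2 fold change -1.26 ± 0.22 (SE), adjusted p = 0.00585). Etv4, a factor driven by FGF, had 49.9 to 99 CPM at 120h, against 112 CPM at 96h (-1.29, adjusted p = 0.0177), and Etv5 had 81.0 to 124 CPM at 120h, against 175 CPM at 96h (-0.88, adjusted p = 0.0177). Dusp6, a phosphatase that limits the pathway, had 126 to 167 CPM at 120h, against 146 CPM at 96h (log2 fold change -0.29, adjusted p = 0.410). Without replicate 1, 2 rose and 4 fell, and without the library term 2 and 4. In the fit lacking replicate 1, the call ended for Fgf3 (-2.97, adjusted p = 0.0975) and Etv5 (-1.06, adjusted p = 0.0596), and the log2 fold change was -1.92 for Spry2. Leaving out replicate 4 ended the call of Fgf3 (-2.10, adjusted p = 0.0999).

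Of 34 Wnt pathway genes, 10 fell, where 2.88% of all genes fell, and none rose, with a median log2 fold change of -0.58. Besides Wnt8a, Wnt3a, Sp5, Axin2 and Rspo3, these were Lef1, Wnt2b, Wnt5b, Fzd10 and Nkd1. Lef1, the DNA-binding factor of the pathway, had 106, 122, 129.7 and 157 CPM at 120h, against 413 CPM at 96h (log2 fold change -1.88 ± 0.28 (SE), adjusted p = 0.00169). Wnt2b had 0, 0, 0.0519 and 0.193 CPM at 120h, against 6.25 CPM at 96h (adjusted p = 0.00677). Replicates 1 and 2 were at 0, and the 96h library stood 102-fold above the 120h mean. Wnt5b, a ligand of mesoderm movement, had 14.6 to 27.6 CPM at 120h, against 37.1 CPM at 96h (-1.58, adjusted p = 0.0105), and the receptor Fzd10 had 98.6 to 203 CPM at 120h, against 249.5 CPM at 96h (-1.26, adjusted p = 0.0131). Nkd1, a negative regulator, had 35 to 73.1 CPM at 120h, against 95 CPM at 96h (-1.58, adjusted p = 0.0180). Wnt5a, the tailbud ligand, had 101 to 161 CPM at 120h, against 149 CPM at 96h (log2 fold change -0.19, adjusted p = 0.761). Without replicate 1, 6 fell, 5 without the library term and 4 on the 5 libraries alone. Leaving replicate 1 aside, the call ended for Wnt2b (adjusted p = 0.318) and Fzd10 (-1.05, adjusted p = 0.151), and the log2 fold change was -2.36 for Wnt5b.

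In the retinoic acid pathway 3 of 17 tested fell, where 2.88% of all genes fell, Aldh1a2 and Crabp1 among them. Crabp1, a retinoid-binding protein, had 36.6, 87.9, 49.6 and 68.1 CPM at 120h, against 231 CPM at 96h (log2 fold change -2.62 ± 0.53 (SE), adjusted p = 0.0153). Genes that retinoic acid is known to switch on did not pass: Rarb, a receptor, had 11.8 to 20.6 CPM at 120h, against 5.44 CPM at 96h (log2 fold change 1.21, adjusted p = 0.0841), and Cyp26b1, a degrading enzyme, had 2.08 to 6.33 CPM at 120h, against 0.203 CPM at 96h (log2 fold change 3.98, adjusted p = 0.0721). Dhrs3, which limits retinoic acid production, had 11.8 to 18.1 CPM at 120h, against 3.41 CPM at 96h (log2 fold change 1.67, adjusted p = 0.0688). Those 3 lay above the 96h library in all 4 libraries. The median over the list was 0.19, and 1 of it fell without replicate 1. With DESeq2, 4 rose and 3 fell. Replicate 1 bore on several of these values: without it the call ended for Crabp1 (-2.50, adjusted p = 0.0835).

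Hedgehog co-receptors and an effector rose: 4 of 14 tested genes passed, where 2.56% of all genes rose, and none fell, with a median log2 fold change of 1.23, and the same counts held without replicate 1, against 2 that rose on the 5 libraries alone. Cdon had 187, 111, 158 and 113 CPM at 120h, against 38.9 CPM at 96h (log2 fold change 2.39 ± 0.27 (SE), adjusted p = 3.29e-04), and Boc had 105, 139, 155 and 136 CPM at 120h, against 26.8 CPM at 96h (log2 fold change 2.11 ± 0.25 (SE), adjusted p = 4.66e-04). Gas1, also a co-receptor, had 209, 187, 204 and 197 CPM at 120h, against 66.6 CPM at 96h (log2 fold change 1.75 ± 0.32 (SE), adjusted p = 0.00747), and Gli2, the activating transcription factor, had 62.7, 115, 95 and 93.9 CPM at 120h, against 24.8 CPM at 96h (log2 fold change 1.5 ± 0.21 (SE), adjusted p = 0.00142). All lay more than 2-fold above the 96h library in every library at 120h. The direct targets did not pass: Ptch1 had 70.6 to 197 CPM at 120h, against 109.5 CPM at 96h (log2 fold change 0.35, adjusted p = 0.818), and Gli1 had 1.86 to 54.5 CPM at 120h, against 5.52 CPM at 96h (log2 fold change 0.54, adjusted p = 0.891), with replicate 4 at the high end of Gli1. The ligand Shh had 0.246 to 5.14 CPM at 120h, against 0.406 CPM at 96h (log2 fold change 1.60, adjusted p = 0.645).

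Of 30 BMP, Nodal and Activin genes tested, 1 rose and 1 fell, with a median log2 fold change of -0.62. These shares are near the 2.56% that rose and 2.88% that fell over all genes tested. Bmp5, a ligand, had 14.1, 6.54, 13.0 and 10.9 CPM at 120h, against 3.69 CPM at 96h (log2 fold change 2.09 ± 0.50 (SE), adjusted p = 0.0240), and Bmp4, a ligand, had 0.877, 1.34, 1.87 and 1.81 CPM at 120h, against 4.18 CPM at 96h (log2 fold change -2.30 ± 0.53 (SE), adjusted p = 0.0215). Nodal had 0.785 to 2.78 CPM at 120h, against 4.30 CPM at 96h (log2 fold change -2.41, adjusted p = 0.244), and Cer1, a secreted Nodal and BMP blocker, had 14.6 to 25 CPM at 120h, against 87.9 CPM at 96h (log2 fold change -2.17, adjusted p = 0.105). Id2, a BMP target, had 38 to 78.0 CPM at 120h, against 9.99 CPM at 96h (log2 fold change 2.52, adjusted p = 0.0842). Without replicate 1, the call ended for Bmp5 (2.56, adjusted p = 0.0562) and Bmp4 (-2.43, adjusted p = 0.108). Omitting replicate 4 ended the call of Bmp4 (-2.25, adjusted p = 0.0596).

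**Figure D4:**
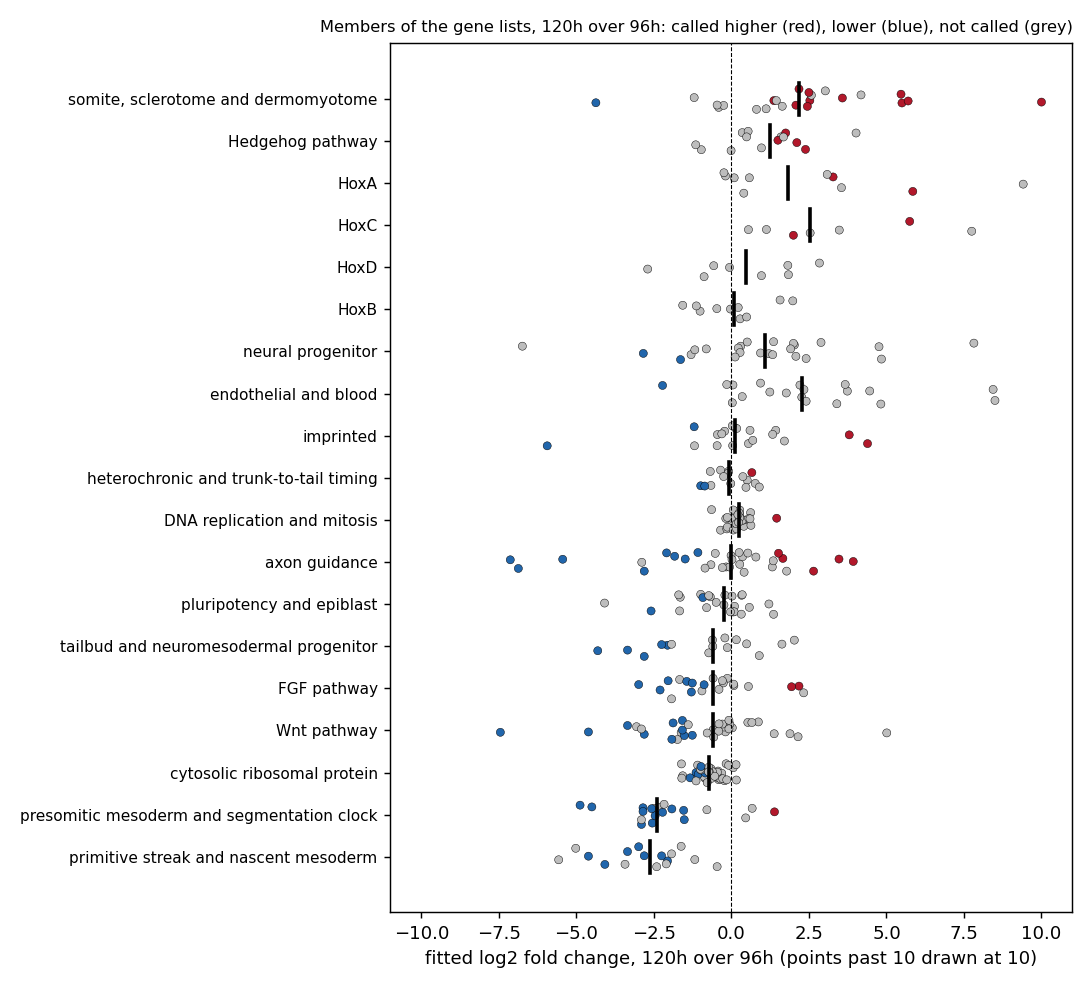
Fitted log2 fold change, 120h over 96h, of each tested member of 19 gene lists; red points rose, blue points fell, grey points did not pass, and black bars are list medians, and points past 10 are drawn at 10. Medians run from 2.54 (HoxC) to -2.61 (primitive streak and nascent mesoderm), against -0.01 over all genes tested.

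Of 24 neural progenitor genes tested, 2 fell and none rose, where 2.88% and 2.56% of all genes did. Their median was nevertheless 1.08, and 11 lay above the 96h library in all 4 libraries, as did 19.2% of all genes. With DESeq2 1 rose, and with no filter on low counts 8. Sox2 had 50, 108, 31.1 and 71.0 CPM at 120h, against 12.9 CPM at 96h (log2 fold change 2.03, adjusted p = 0.233), Sox1 had 13.3, 39.9, 6.43 and 14.6 CPM at 120h, against 0.487 CPM at 96h (log2 fold change 4.84, adjusted p = 0.103), and Pax6 had 3.56, 19.8, 1.32 and 9.46 CPM at 120h, against 0.731 CPM at 96h (log2 fold change 2.89, adjusted p = 0.457). The 4 libraries at 120h differed several-fold among themselves in these genes, with replicate 2 highest and replicate 3 lowest in each. Foxb1, a forkhead gene of the neural tube and paraxial mesoderm, fell, with 28.4, 45.6, 39.3 and 51.9 CPM at 120h, against 92.6 CPM at 96h (log2 fold change -1.64 ± 0.40 (SE), adjusted p = 0.0296), and so did Fabp7, a fatty-acid binding protein of radial glia, with 3.05, 3.27, 3.06 and 2.16 CPM at 120h, against 21.2 CPM at 96h (log2 fold change -2.84 ± 0.58 (SE), adjusted p = 0.0118). Of 31 early neuron genes, 2 rose and 2 fell, where 2.56% and 2.88% of all genes did. Their median log2 fold change was -0.92. Ebf2, a factor of neurons and mesenchyme, had 9.25 to 23.2 CPM at 120h, against 1.30 CPM at 96h (4.28, adjusted p = 0.00707), and Ebf3 had 16.0 to 31.7 CPM at 120h, against 2.68 CPM at 96h (3.40, adjusted p = 0.00110). Stmn2, a microtubule regulator of neurons, had 1.75, 2.29, 1.32 and 0.888 CPM at 120h, against 20.8 CPM at 96h (log2 fold change -4.36 ± 0.78 (SE), adjusted p = 0.00715), and Crabp1 fell as above. Pan-neuronal markers were low: Dcx had 0.106 to 0.182 CPM at 120h, against 0.203 CPM at 96h, Elavl3 0.415 to 1.51 CPM at 120h, against 0.447 CPM at 96h and Tubb3 1.99 to 16.3 CPM at 120h, against 6.09 CPM at 96h. Without replicate 1, 0 neural progenitor genes fell. With replicate 1 left out, the call ended for Foxb1 (-1.44, adjusted p = 0.189) and Fabp7 (-2.95, adjusted p = 0.0856), and the log2 fold change was -7.18 for Stmn2. Leaving out replicate 4 gave a log2 fold change of -3.56 for Stmn2.

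The level of endothelial and blood genes spread widely among the libraries at 120h. Their sum was 97.5, 43.8, 162 and 334 CPM at 120h, against 109 CPM at 96h. Replicate 4 was highest and replicate 2 lowest, and the 96h library lay between them. That place rests largely on Lmo2, which held 86.1 of the 109 CPM at 96h, against 13.1 to 32.9 CPM at 120h. Of 19 genes of the list tested, 13 lay above the 96h library in all 4 libraries, as did 19.2% of all genes, and none rose. With DESeq2 3 rose, and with no filter on low counts 10. Cdh5, the endothelial cadherin, had 6.79, 0.422, 13.9 and 30.1 CPM at 120h, against 0.284 CPM at 96h (log2 fold change 4.82, adjusted p = 0.324), and Kdr, a VEGF receptor, had 28.3, 2.57, 31.7 and 85.3 CPM at 120h, against 6.05 CPM at 96h (log2 fold change 2.21, adjusted p = 0.574). Lmo2, shared by blood and early mesoderm, fell, with 21.0, 13.1, 32.6 and 32.9 CPM at 120h, against 86.1 CPM at 96h (log2 fold change -2.22 ± 0.55 (SE), adjusted p = 0.0355). Endoderm and epithelial genes spread likewise, with a sum of 76.3 to 445 CPM at 120h, against 306 CPM at 96h, and 0 of 25 tested were called. Cdh1, the epithelial cadherin, had 30.4, 12.7, 32.3 and 80.0 CPM at 120h, against 177 CPM at 96h (log2 fold change -2.54, adjusted p = 0.148). When replicate 1 was omitted, the call ended for Lmo2 (-2.88, adjusted p = 0.0748). Omitting replicate 4 ended the call of Lmo2 (-2.04, adjusted p = 0.0760).

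Of 20 cardiac and lateral mesoderm genes, 4 fell and none rose, at low levels. Over all genes tested 2.88% fell and 2.56% rose, which also stands beside each list count of this paragraph. Wnt2 had 0.0923, 0, 0.233 and 0.656 CPM at 120h, against 6.05 CPM at 96h (adjusted p = 0.00953), and Myl7, an atrial myosin light chain, had 0, 0.0704, 0 and 0.193 CPM at 120h, against 3.29 CPM at 96h (adjusted p = 5.88e-04). Myl4 had 0, 0.563, 0.363 and 0.618 CPM at 120h, against 1.01 CPM at 96h (adjusted p = 2.03e-04), and Bmp4 is given above. Fitted values of Wnt2, Myl7 and Myl4 are not given, as each had a replicate at 0 and the fit holds a library term. The libraries at 144h, replicates 1 and 2, help to set that term. They had 0 and 7.70 CPM of Wnt2, 0.133 and 22.2 CPM of Myl7 and 0.0887 and 37.9 CPM of Myl4. The 96h library stood 24.6-fold above the 120h mean in Wnt2, 49.9-fold in Myl7 and 2.63-fold in Myl4. None of the list was called without the library term, on ISML_third libraries alone or on the 5 libraries alone. The core heart factors Nkx2-5, Tbx5 and Hand2 had at most 0.116, 0.277 and 0.811 CPM at 120h and 0.0812, 0.528 and 0.162 CPM at 96h. In intermediate mesoderm 1 of 10 rose: Wt1, a factor of kidney and coelomic lining, had 9.74, 7.81, 3.66 and 6.68 CPM at 120h and 1 count (0.0406 CPM) at 96h, a pooled ratio of 161, counting interval 28.7 to 6354 (adjusted p = 0.00516). Osr1 of the same tissue had 0 to 1.12 CPM at 120h, against 0.325 CPM at 96h, and Pax2 had 0.231 to 1.51 CPM at 120h, against 1.01 CPM at 96h. In the neural crest list 1 of 11 rose, Ets1, with 190.3, 99.2, 193 and 178 CPM at 120h, against 21.3 CPM at 96h (log2 fold change 3.12 ± 0.50 (SE), adjusted p = 0.00516), while Sox10 and Foxd3 reached 0.211 and 0.386 CPM at 120h and 0.0406 and 0 CPM at 96h. In the notochord list 1 of 10 rose, Cav1, a caveola protein, with 4.48, 3.80, 5.11 and 3.94 CPM at 120h, against 1.18 CPM at 96h (log2 fold change 1.89 ± 0.41 (SE), adjusted p = 0.0154), while Noto had 0.0462 to 0.648 CPM at 120h, against 1.46 CPM at 96h. None of 10 germ cell genes was called. In the fit lacking replicate 1, the call ended for Cav1 (1.79, adjusted p = 0.0959).

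Of 24 pluripotency and epiblast genes tested, 2 fell, where 2.88% of all genes fell, and none rose, with a median log2 fold change of -0.23. Dnmt3b, a DNA methyltransferase of epiblast, had 113, 127, 131 and 122 CPM at 120h, against 237 CPM at 96h (log2 fold change -0.92 ± 0.20 (SE), adjusted p = 0.0172), and Klf5 had 1.85, 1.83, 1.76 and 2.97 CPM at 120h, against 13.2 CPM at 96h (log2 fold change -2.59 ± 0.61 (SE), adjusted p = 0.0234). Pou5f1, a core pluripotency factor that persists in posterior progenitors, had 3.88, 7.46, 7.63 and 5.14 CPM at 120h, against 64.5 CPM at 96h (log2 fold change -4.09, adjusted p = 0.0825): every library at 120h lay far below the 96h library, yet the test was not passed. Nanog had 2.26 to 3.90 CPM at 120h, against 5.89 CPM at 96h, and Zfp42 had 0.849 to 1.99 CPM at 120h, against 1.66 CPM at 96h. Without replicate 1 none of the list fell. Leaving replicate 1 aside, the call ended for Dnmt3b (-0.49, adjusted p = 0.292) and Klf5 (-1.94, adjusted p = 0.249).

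Of 15 genes of developmental timing tested, 1 rose and 2 fell, where 2.56% and 2.88% of all genes did. Igf2bp2, an RNA-binding protein, rose, with 314, 363, 311 and 384 CPM at 120h, against 200 CPM at 96h (log2 fold change 0.66 ± 0.18 (SE), adjusted p = 0.0410). Mycn fell, with 59.8, 77.4, 87.5 and 99.3 CPM at 120h, against 119 CPM at 96h (log2 fold change -0.99 ± 0.27 (SE), adjusted p = 0.0466), as did Prtg, protogenin, with 1066, 723, 736 and 911 CPM at 120h, against 1904 CPM at 96h (log2 fold change -0.86 ± 0.24 (SE), adjusted p = 0.0482). Lin28a, which blocks let-7 maturation, had 683, 644, 424 and 549 CPM at 120h, against 1011 CPM at 96h (log2 fold change -0.68, adjusted p = 0.132), and its relative Lin28b had 199, 195, 134 and 129 CPM at 120h, against 122 CPM at 96h (log2 fold change 0.77, adjusted p = 0.0721). All 4 libraries at 120h lay below the 96h library in Lin28a and above it in Lin28b. Gdf11, a TGF-beta ligand of the trunk-to-tail switch, had 72.0 to 127 CPM at 120h, against 60.0 CPM at 96h (log2 fold change 0.90, adjusted p = 0.150), and Nr6a1, a nuclear receptor of trunk formation, had 245 to 369.6 CPM at 120h, against 589 CPM at 96h (log2 fold change -0.66, adjusted p = 0.0606). Replicate 1 bore on several of these values: without it the call ended for Igf2bp2 (0.70, adjusted p = 0.131), Mycn (-0.99, adjusted p = 0.196) and Prtg (-0.92, adjusted p = 0.164). Leaving out replicate 2 ended the call of Mycn (-0.99, adjusted p = 0.0542) and Prtg (-0.86, adjusted p = 0.0594). Leaving out replicate 3 ended the call of Mycn (-0.99, adjusted p = 0.0550) and Prtg (-0.86, adjusted p = 0.0590). Leaving out replicate 4 ended the call of Igf2bp2 (0.65, adjusted p = 0.0608), Mycn (-0.99, adjusted p = 0.0873) and Prtg (-0.84, adjusted p = 0.0915).

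Among 19 imprinted genes tested, 2 rose and 2 fell, where 2.56% and 2.88% of all genes did. Besides Mest, Plagl1, a zinc-finger factor, rose, with 122, 264, 76.2 and 106 CPM at 120h, against 10.0 CPM at 96h (log2 fold change 3.80 ± 0.89 (SE), adjusted p = 0.0306). Igf2r, the receptor that clears Igf2, fell, with 99.5, 65.4, 73.7 and 78.7 CPM at 120h, against 222 CPM at 96h (log2 fold change -1.20 ± 0.18 (SE), adjusted p = 0.00178), as did Phlda2, with 0.0462, 0.211, 0.571 and 0.386 CPM at 120h, against 2.31 CPM at 96h (-5.94, adjusted p = 0.0204). Replicate 1 held 1 count of Phlda2. The 96h library stood 7.62-fold above the 120h mean of Phlda2, less than the fitted change. H19 had 1545 to 2755 CPM at 120h, against 836 CPM at 96h (log2 fold change 0.60, adjusted p = 0.450), and Peg3 had 1522 to 2675 CPM at 120h, against 2632 CPM at 96h (log2 fold change -0.22, adjusted p = 0.747). The list median was 0.13. Matrix and adhesion genes split likewise. Fn1, fibronectin, had 913, 662, 851 and 1099 CPM at 120h, against 4464 CPM at 96h (log2 fold change -2.19 ± 0.39 (SE), adjusted p = 0.00672), and Lama1, a laminin of early basement membranes, had 103, 93.8, 108 and 141 CPM at 120h, against 291 CPM at 96h (log2 fold change -1.57 ± 0.24 (SE), adjusted p = 0.00177). Col2a1, the cartilage collagen, had 79.8, 209, 165 and 289.8 CPM at 120h, against 12.5 CPM at 96h (log2 fold change 2.67 ± 0.35 (SE), adjusted p = 8.84e-04), and Fbn2, a fibrillin, had 604, 535, 608 and 664 CPM at 120h, against 118 CPM at 96h (log2 fold change 2.25 ± 0.28 (SE), adjusted p = 5.24e-04). With Fmod, 3 of 29 matrix genes rose and 2 fell, against the same shares of all genes. Of 17 cadherins, 1 rose and 2 fell (Pcdh8 and Pcdh19), again against these shares. Cdh11, the mesenchymal cadherin, had 147, 61.2, 148 and 172 CPM at 120h, against 26.3 CPM at 96h (log2 fold change 2.61 ± 0.54 (SE), adjusted p = 0.0175). Cdh2, N-cadherin, had 333 to 477 CPM at 120h, against 392 CPM at 96h (log2 fold change 0.35, adjusted p = 0.379). Without replicate 1, the call ended for Phlda2 (-7.92, adjusted p = 0.138) and Fn1 (-1.89, adjusted p = 0.0821). Omitting replicate 4 ended the call of Phlda2 (-5.50, adjusted p = 0.0556).

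Axon guidance genes, which also steer mesoderm and vessels, had 5 of 31 that rose and 8 that fell, where 2.56% and 2.88% of all genes did. Sema3c, a semaphorin ligand, had 53.4, 37.6, 40.9 and 32.6 CPM at 120h, against 3.53 CPM at 96h (log2 fold change 3.93 ± 0.26 (SE), adjusted p = 6.77e-06), and Ntn1, the netrin ligand, had 303, 278, 385 and 377 CPM at 120h, against 97.7 CPM at 96h (log2 fold change 1.66 ± 0.22 (SE), adjusted p = 7.72e-04). Nrp1, a semaphorin receptor, had 25.3 to 42.9 CPM at 120h, against 6.21 CPM at 96h (2.65, adjusted p = 0.0132), and Sema3a had 52.8 to 142 CPM at 120h, against 11 CPM at 96h (3.47, adjusted p = 0.0191). Epha7 had 31.9 to 70.9 CPM at 120h, against 25.1 CPM at 96h (1.52, adjusted p = 0.0497). On the falling side stood L1cam and Unc5c, given above, and Plxna2, a plexin receptor, with 139, 87.7, 108 and 103 CPM at 120h, against 521 CPM at 96h (log2 fold change -1.83 ± 0.30 (SE), adjusted p = 0.00364). Slit3, a repulsive ligand, had 22.5 to 45.5 CPM at 120h, against 145 CPM at 96h (-2.81, adjusted p = 0.00579). Robo3, of the Slit receptor family, had 0 to 0.309 CPM at 120h, against 2.52 CPM at 96h (adjusted p = 0.00690), and Efna1, an ephrin, had 5.96 to 15.1 CPM at 120h, against 24.2 CPM at 96h (-2.09, adjusted p = 0.0111). The ephrin receptor Epha4 had 85.2 to 129 CPM at 120h, against 292 CPM at 96h (-1.08, adjusted p = 0.0191), and Ephb1 had 9.65 to 12.8 CPM at 120h, against 31.3 CPM at 96h (-1.49, adjusted p = 0.00992). The median over the list was -0.01, and 3 rose and 5 fell without replicate 1, and 2 and 3 on the 5 libraries alone. With replicate 1 left out, the call ended for Sema3a (3.46, adjusted p = 0.0562), Epha7 (1.59, adjusted p = 0.143), Plxna2 (-1.59, adjusted p = 0.0652), Robo3 (adjusted p = 0.0773), Efna1 (-2.27, adjusted p = 0.0742) and Epha4 (-0.80, adjusted p = 0.222). Leaving out replicate 4 ended the call of Epha7 (1.5, adjusted p = 0.0713).

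Housekeeping groups were mostly not called. Over all genes tested 2.56% rose and 2.88% fell, and lists below with 1 called member are near these shares. Of 27 replication and mitosis genes 1 rose, E2f2, with 19.1, 18.6, 16.9 and 19.8 CPM at 120h, against 6.74 CPM at 96h (log2 fold change 1.46 ± 0.23 (SE), adjusted p = 0.00299), while Mki67 had 291 to 828 CPM at 120h, against 516 CPM at 96h and Top2a 846 to 1391 CPM at 120h, against 999.6 CPM at 96h. None of 19 p53 targets and cell cycle inhibitors was called. Of 38 cytosolic ribosomal protein genes 5 fell (Rps19, Rpl35, Rps3, Rpl38 and Rpl28), where 2.88% of all genes fell, with a list median of -0.72. The count was 0 without the library term and on the 5 libraries alone, and 12 with no demand on direction. Rps19 had 429, 746, 687 and 664 CPM at 120h, against 792 CPM at 96h (log2 fold change -0.98 ± 0.19 (SE), adjusted p = 0.00880), and the nearest library, replicate 2, lay close to the 96h library. The summed level of the 38 genes was 24512, 35906, 31205 and 30989.7 CPM at 120h, against 35313 CPM at 96h, with replicate 1 lowest. With clone 2 at 120h in place of clone 1, Rps19 turned to a log2 fold change of 0.24, Rpl35 to 0.17, Rpl38 to 0.25 and Rpl28 to 0.13. In the glycolysis list 1 of 24 fell, Eno1, with 579.6, 1202, 884 and 1148 CPM at 120h, against 1315 CPM at 96h (log2 fold change -1.20 ± 0.25 (SE), adjusted p = 0.0131), which turned to a log2 fold change of 0.24 with clone 2. Of 23 immediate early and heat shock genes Egr2 fell, with 0, 0.0704, 0.130 and 0.270 CPM at 120h, against 0.690 CPM at 96h (adjusted p = 0.0296), at the limit of detection. Of 27 CTCF, cohesin and Polycomb genes 1 rose, Bmi1, a Polycomb subunit, with 99.5, 73.9, 101 and 97.7 CPM at 120h, against 42.1 CPM at 96h (log2 fold change 1.5 ± 0.28 (SE), adjusted p = 0.00707), while Ctcf had 222 to 285 CPM at 120h, against 241 CPM at 96h (log2 fold change 0.14, adjusted p = 0.631). No mitochondrially encoded gene of 10 tested was called. When replicate 1 was omitted, the call ended for Rpl35 (-0.52, adjusted p = 0.226), Rps3 (-0.86, adjusted p = 0.0660), Rpl38 (-1.33, adjusted p = 0.0521), Rpl28 (-0.38, adjusted p = 0.557), Eno1 (-1.25, adjusted p = 0.0879) and Egr2 (adjusted p = 0.140), and the log2 fold change was 2.22 for Bmi1. Omitting replicate 4 ended the call of Egr2 (adjusted p = 0.0611).

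The later stages of the same line, which use no test here and share the libraries at 120h, show whether a level went on in the same direction. Each stage was 1 or 2 libraries, and replicate 2 at 144h held only 0.0864% mitochondrial counts, the lowest share of all 26 libraries. The libraries at 144h also enter the fitted fold changes through the library term. Msgn1 had 80.9 CPM at 96h, 3.42, 5.10, 7.57 and 7.26 CPM at 120h, 0 and 0.885 CPM at 144h and 0 CPM at 168h. Aldh1a2 had 1523 CPM at 96h, 67.3, 45.8, 121 and 97.8 CPM at 120h, 35.8 and 36.5 CPM at 144h and 57.7 CPM at 168h, and Wnt8a had 79.4 CPM at 96h, 3.69, 8.72, 4.75 and 5.64 CPM at 120h, 2.79 and 7.24 CPM at 144h and 1.25 CPM at 168h. Msgn1 was lower in each library at 144h and 168h than in every library at 120h, while Wnt8a in 1 library at 144h and Aldh1a2 at 168h lay within the range at 120h. Stmn2 had 20.8 CPM at 96h, 1.75, 2.29, 1.32 and 0.888 CPM at 120h, 1.95 and 12.2 CPM at 144h and 52.7 CPM at 168h. L1cam had 21.1 CPM at 96h, 0.185, 0.211, 0.259 and 0.425 CPM at 120h, 0.399 and 1.61 CPM at 144h and 8.07 CPM at 168h, and Crabp1 had 231 CPM at 96h, 36.6, 87.9, 49.6 and 68.1 CPM at 120h, 89.4 and 149.5 CPM at 144h and 181 CPM at 168h. These 3 genes, shown because they fell, were lower in every library at 120h than at 96h and higher again in the library at 168h. Whether they stand for nerve cells at large was not tested. Of 31 early neuron genes tested, 11 lay below the 96h library in all 4 libraries at 120h and 6 above. Over all genes tested these shares were 21.2% and 19.2%. The list had a median log2 fold change of -0.92. Ebf2 and Ebf3 of the early neuron list rose from 96h to 120h, and the ranges of Elavl3 and Tubb3 at 120h took in the 96h level. Fmod had 0 CPM at 96h, 31.9, 26.6, 45.8 and 24.7 CPM at 120h, 9.63 and 8.28 CPM at 144h and 0.428 CPM at 168h, highest at 120h. Islr had 0.325 CPM at 96h, 34.5, 52.4, 85.4 and 46.4 CPM at 120h, 19.7 and 27.0 CPM at 144h and 13.8 CPM at 168h. Hoxa9 had 0.487 CPM at 96h, 27.8, 42.7, 13.2 and 22.8 CPM at 120h, 42.3 and 32.3 CPM at 144h and 67.0 CPM at 168h, and Nr2f1 had 0.568 CPM at 96h, 18.0, 22.1, 42 and 52.7 CPM at 120h, 81.5 and 189 CPM at 144h and 181 CPM at 168h. Hoxa9 and Nr2f1 were highest in a library at 144h or 168h.

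**Figure D5:**
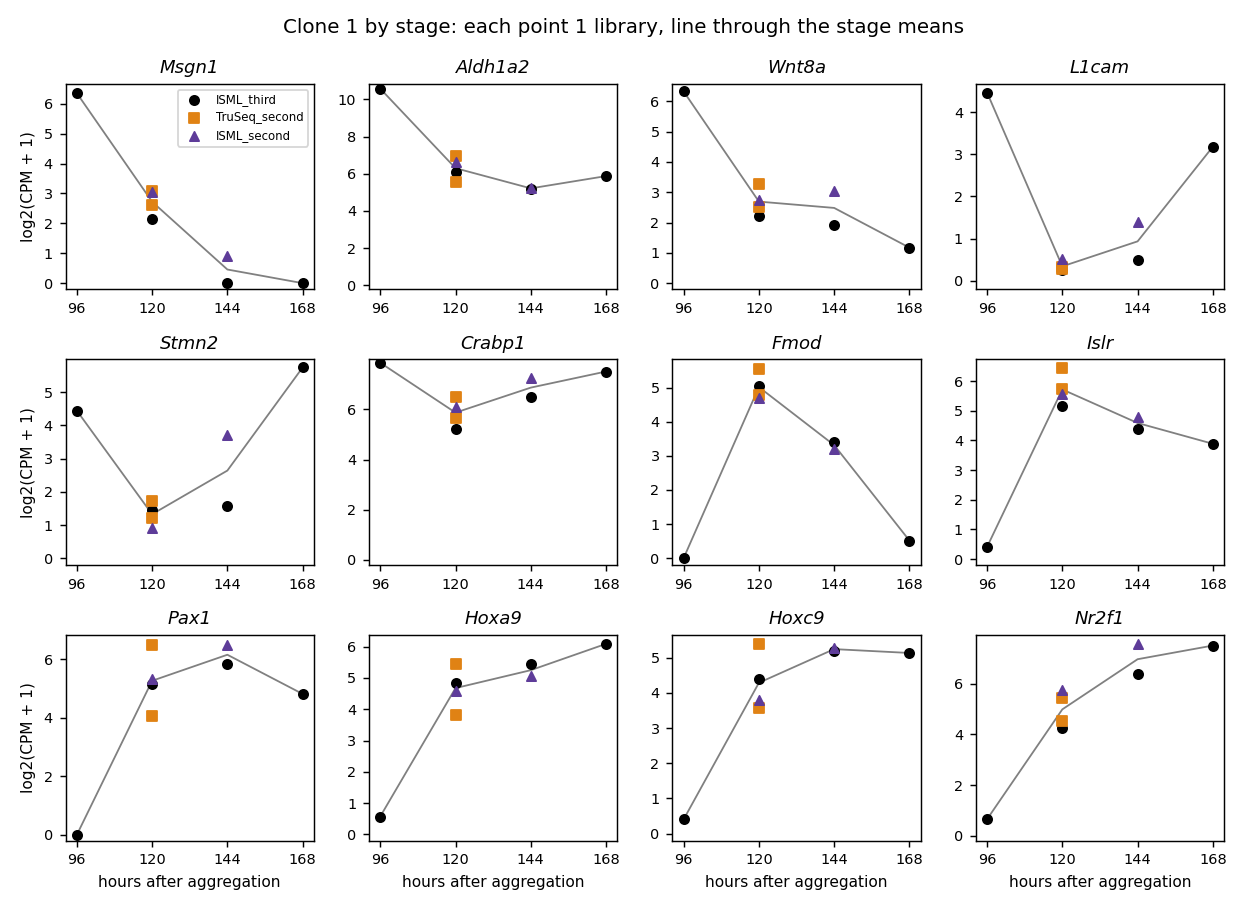
Levels, as log2(CPM + 1), of 12 genes of clone 1 at 96h, 120h, 144h and 168h; each point is 1 library, with symbols for the library name, and the line joins the stage means. Msgn1, Aldh1a2 and Wnt8a drop after 96h. L1cam, Stmn2 and Crabp1 are lower at 120h than at 96h and at 168h. Fmod and Islr are highest at 120h, and Hoxa9 and Nr2f1 at 144h or 168h.

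Clone 2 of the same alleles has 2 libraries at 120h, both ISML_third, and was not analysed at 96h here. Its values at 120h were 2475 and 2150.5 CPM for Igfbp5, 3079 and 3268 CPM for Mest and 34.9 and 35.9 CPM for Fmod. Pax3 had 74.3 and 75.5 CPM, Aldh1a2 76.2 and 123 CPM, Msgn1 7.13 and 6.70 CPM and Hoxa9 35.4 and 16.1 CPM in these libraries. Set against the 96h library of clone 1 in the same fit, clone 2 gave 538 genes that rose and 472 that fell, and both comparisons share that library.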

How the data were processed

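PolyA RNA of gastruloids was sequenced in 26 libraries, 15 groups of line and stage by the labels. The authors trimmed reads with cutadapt 1.18 and aligned them to mm10 with STAR 2.7.10a, per the submitters' processing notes. The deposited read counts per gene are in a table named after HTSeq, and no source used here gives the strand setting or annotation. The authors' FPKM values came from Cufflinks 2.2.1, per the submitters' processing notes. Most libraries used the ISML kit, and replicates 2 and 3 at 120h the TruSeq Stranded mRNA kit, per the labels. In all, 8 columns (4 in each table) match no sample and were not used.

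Counts were fitted with edgeR 4.0.16 (quasi-likelihood, TMM, minimum count 10 by filterByExpr, robust) in R 4.3.3 over all 26 libraries with group and library name as terms, leaving 8 residual degrees of freedom. The fit was tested on simulated data. CPM are counts scaled to library size with TMM factors. Intervals and floors (3 counts) cover counting error only. Alternatives used DESeq2 1.42.0, limma 3.58.1 on log2 CPM or on log2(FPKM + 1) or log2(FPKM + 0.1), other filters, terms and sets of libraries.

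Genes were named by rule: Hox genes; per direction, the 20 called genes, without predicted models, whose nearest library at 120h differed most from 96h on log2(CPM + 1), and the 5 others with the smallest adjusted p; up to 5 called members of each of 35 gene lists, and members that define a list. Called members beyond 5 were added after their values were seen. The lists hold 668 genes; Ero1a and mt-Atp6 were not found in the table. The members and lists were chosen with earlier results of these data known. A few genes are counted in the lists but not reported here.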

Additional observations from a re-analysis of the deposited data

Results flagged for a closer look

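In 8 of 145 called genes in the naming rule and the lists, 1 of the 4 libraries at 120h stood apart from the other 3 by Dixon's criterion, which chance meets in about 1 of 20 groups. Replicate 1 stood apart in 4 of them. Igfbp5 was at 3097 CPM there, against 1944 to 2135 CPM in the other libraries at 120h, and Rhbg at 0 CPM, against 0.246 to 0.285 CPM. Evx1 was at 8.54 CPM in replicate 1, against 17.1 to 18.0 CPM, and Fgfr1 at 167 CPM, against 248 to 260.3 CPM. In replicate 2, Ets1 was at 99.2 CPM, against 178 to 193 CPM, and Bmi1 at 73.9 CPM, against 97.7 to 101 CPM. In replicate 4, Klf5 was at 2.97 CPM, against 1.76 to 1.85 CPM, and Ephb1 at 9.65 CPM, against 12.3 to 12.8 CPM.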

How the results depend on the processing

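Against 454 genes that rose and 512 that fell, the counts were 819 and 741 with no filter on low counts, 178 and 147 on ISML_third libraries alone, 42 and 92 on the 8 libraries of clone 1, 63 and 136 on the 5 libraries of both stages, and 170 and 194 at an adjusted p of 0.01. Fewer samples entered the middle 3 fits. Leaving out each library at 120h gave 404 to 478 genes that rose and 277 to 502 that fell, lowest for falling genes without replicate 1. DESeq2 gave 661 and 577. The share of calls that were higher was 47% and became 59.3% without replicate 1, 31.3% on 8 libraries, 31.7% on 5 libraries and 37.1% on log2(FPKM + 1).

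Of 145 called genes in the naming rule and the lists, 141 were also called by DESeq2, 144 by limma on log2 CPM, 110 without the library term, 88 on ISML_third libraries, 73 on the 5 libraries, 90 without replicate 1 and 130 without replicate 4; the cause was not tested. The library term takes up replicates 2 and 3, so leaving out either cannot move a fitted fold change. With clone 2 at 120h, log2 fold changes reversed to 0.24 for Eno1 and Rps19, 0.13 for Rpl28, 0.17 for Rpl35 and 0.25 for Rpl38. Leaving out 1 library at a time, Ptgds ranged from -5.73 to 0.00, highest without replicate 1. The levels do not bear out that fitted 0.00: replicates 2 to 4 had 1.97, 1.61 and 1.24 CPM, against 22.3 CPM at 96h. Uncalled Hox genes near 0 or of few counts turned too. In the same runs Hoxa11 ranged from -0.62 to 4.21, Hoxa5 from -0.10 to 0.15, Hoxb13 from -0.61 to 0.97, Hoxc11 from -1.54 to 4.77 and Hoxd1 from -0.15 to 0.21, with the turned value without replicate 1. Hoxa11 and Hoxc11 were at -0.01 and Hoxd11 at -0.32 on log2(FPKM + 1), and Hoxd11 at -0.74 on log2(FPKM + 0.1) and -0.34 with limma on log2 CPM. Hoxb3 ranged from -0.02 to 1.09, Hoxb6 from -0.11 to 0.00 and Hoxd11 from 0.00 to 1.19, with the turned value without replicate 4. Hoxb6 was at 0.78 and Hoxa4 at 0.00 without the library term, Hoxb6 at 0.74 and Hoxa5 at -0.01 on 8 libraries, and Hoxb6 at 0.75 and Hoxa5 at -0.01 on 5 libraries. On ISML_third libraries Hoxb6 was at 0.04 and Hoxd11 at 0.00, and with clone 2 Hoxb6 was at 0.65 and Hoxa2 at -0.35. No paired analysis was possible because the stages share only 1 replicate number. For genes under 1 CPM, fold changes rest on few reads.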
